A study of Mus musculus with 16 samples.

Results

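The 75 regions of open chromatin described here lie at 22 imprinted genes of mouse haematopoietic stem cells (HSCs), out of 33773 regions in all. A region is a stretch where peaks of the deposited ATAC-seq lists overlapped by at least 1 bp, called in at least 2 of 16 libraries. A region was counted as belonging to an imprinted gene when the nearest protein-coding gene, within 100 kb of its median summit, was among 35 listed imprinted genes. The regions were thus chosen by the peak calls themselves, so the number of libraries with a call is given as a description. The other 13 listed genes had no region.

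The libraries came from old and young male B6 donors, before and after transplantation, with 4 libraries in each group. The 4 old post and 4 young post libraries were made from HSCs recovered 3 months after 1000 donor HSCs had been given to 5 lethally irradiated young BJ recipients with 300000 Sca-1-depleted BJ helper marrow cells. The marrow of the 5 recipients was pooled. The 4 old pre and 4 young pre libraries were made from 10000 HSCs of the same donors, sorted before transplantation. Each old donor was 1 mouse of 24 months, and each young donor was a pool of 3 to 4 mice of 8 to 12 weeks. A pre and a post library with the same age and number share their donor. No label states that a donor marker was used when post HSCs were collected, so donor, recipient and helper HSCs cannot be told apart in any post value.

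Imprinted genes are expressed mainly from the copy inherited from 1 parent. The silent and the active copy are told apart by DNA methylation laid down in the germ line at imprinting control regions, which often also serve as promoters of long noncoding RNAs that silence the genes around them. In HSCs, imprinted genes such as Cdkn1c, Dlk1, Grb10 and Igf2r are known for growth control and quiescence. An ATAC-seq peak does not tell the parental copies apart, and the absence of a call in a list does not show closed chromatin.

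The sequences upstream of 6 genes are shown because the results below turn on whether a peak lay there. Each is the 250 bases before the start of transcription, 5′ to 3′, from the RefSeq promoter table of GRCm38.p6, with every CpG, the dinucleotide that carries imprint methylation, in capitals. Peg3 and Dlk1 hold the regions that differed between post and pre libraries, Kcnq1ot1 and Airn are the noncoding RNAs whose promoters sit in imprinting control regions, and Zrsr1 and Ube3a carried a peak in almost every library. The windows are Peg3 on chr7:6730420-6730669 (minus strand), Dlk1 on chr12:109452573-109452822 (plus strand), Kcnq1ot1 on chr7:143296548-143296797 (minus strand), Airn on chr17:12741061-12741310 (plus strand), Zrsr1 on chr11:22971755-22972004 (plus strand) and Ube3a on chr7:59228500-59228749 (plus strand).
Peg3: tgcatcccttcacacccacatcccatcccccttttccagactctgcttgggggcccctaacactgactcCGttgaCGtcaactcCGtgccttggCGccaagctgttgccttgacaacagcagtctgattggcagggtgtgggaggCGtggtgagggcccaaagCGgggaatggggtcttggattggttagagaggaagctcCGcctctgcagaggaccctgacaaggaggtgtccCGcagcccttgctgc
Dlk1: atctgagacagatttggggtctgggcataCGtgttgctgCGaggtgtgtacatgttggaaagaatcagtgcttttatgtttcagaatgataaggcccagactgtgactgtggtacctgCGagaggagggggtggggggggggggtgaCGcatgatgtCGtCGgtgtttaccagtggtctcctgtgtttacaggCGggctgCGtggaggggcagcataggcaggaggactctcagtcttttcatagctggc
Kcnq1ot1: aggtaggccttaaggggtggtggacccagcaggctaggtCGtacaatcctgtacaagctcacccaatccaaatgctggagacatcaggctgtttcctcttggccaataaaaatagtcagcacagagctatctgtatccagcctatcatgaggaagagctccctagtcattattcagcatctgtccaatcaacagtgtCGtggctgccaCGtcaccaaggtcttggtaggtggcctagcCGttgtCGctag
Airn: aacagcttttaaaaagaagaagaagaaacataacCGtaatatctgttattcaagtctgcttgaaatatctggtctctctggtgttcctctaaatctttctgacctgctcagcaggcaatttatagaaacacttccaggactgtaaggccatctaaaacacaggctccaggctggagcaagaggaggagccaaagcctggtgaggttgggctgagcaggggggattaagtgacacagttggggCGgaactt
Zrsr1: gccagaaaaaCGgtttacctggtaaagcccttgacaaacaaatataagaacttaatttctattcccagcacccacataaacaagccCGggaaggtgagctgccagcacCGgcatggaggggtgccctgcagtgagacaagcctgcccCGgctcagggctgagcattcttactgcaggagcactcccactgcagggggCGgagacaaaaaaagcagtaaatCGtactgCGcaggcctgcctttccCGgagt
Ube3a: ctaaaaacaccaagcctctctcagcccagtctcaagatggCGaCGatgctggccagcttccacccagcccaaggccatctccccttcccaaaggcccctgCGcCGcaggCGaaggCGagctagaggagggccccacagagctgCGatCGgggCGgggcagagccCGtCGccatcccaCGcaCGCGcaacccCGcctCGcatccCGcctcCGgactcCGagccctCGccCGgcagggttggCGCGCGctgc

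No imprinted gene region overlapped the Peg3 window, whose nearest region ended 516 bp away inside the gene, or the Dlk1 window. The Kcnq1ot1 window holds 5 CpG and was overlapped by a region called in 16 of 16 libraries. The Airn window holds 2 CpG and its region was called in 13 libraries. The Zrsr1 window holds 8 CpG, as do those of Peg3 and Dlk1, and its region was called in 15 libraries. Ube3a, with 24 CpG, had a region in 16 libraries.

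The deposited lists differed in length, from 5711 to 32557 peaks, and 3 of them (old pre 4, young pre 4 and old post 4) were the shortest, with at most 14030 peaks. Their read depth is unknown. Stage and transposition day cannot be told apart, since pre libraries were transposed on days 1 to 3 and post libraries on days 4 to 6. Of 10 HSC marker genes, 9 had a region, and Tek had none. Cd79a and Ms4a1 of B cells, Cd3e, Cd4 and Cd8a of T cells, Elane, Mpo and S100a8 of granulocytes and monocytes, and Lepr of stromal cells had no region, while all 5 erythroid, 4 megakaryocyte and 4 endothelial markers had one. No region of these 8 marker lists passed the tests below in any of the 6 contrasts, but few of them could be tested. Post against pre over both ages, 29 HSC, 9 endothelial, 5 erythroid, 4 stromal, 3 granulocyte and monocyte and 2 B cell regions were tested. Of T cell and megakaryocyte regions, 0 were tested in any contrast, so the result says nothing on those cells.

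The imprinted gene regions resembled all regions in their median number of calls and in peak rank, and fewer of them were called in every library. The median region was called in 12 libraries in both sets. In all 16 libraries, 6 of the 75 (8.0%) were called, against 15.6% of all regions, and with the 3 short lists set aside 30 of 75 (40.0%) were called in all 13 others, against 42.9% of all regions. Within each list, peaks were ranked by the caller's area score, and the median rank of an imprinted region was at percentile 41.9, against 39.7 for all regions. Fewer of them lay at a gene end, within 1 kb of either end of the gene: 15 (20.0%), against 32.2% of all regions. Within genes lay 36 (48.0%), against 39.9%, and outside genes 24 (32.0%), against 24.4%.

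The threshold of 2 libraries admitted 4 regions with exactly 2 calls, of Dlk1 and Rasgrf1 once each and of Slc22a18 for the rest. A further 9 stretches near listed genes had a peak in 1 library only and were left out. The farthest region kept was 82.0 kb from Rasgrf1. The nearest one left out by distance was 146 kb from Rtl1.

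Maternally expressed genes held most of the regions. Of 15 maternally expressed genes, 13 had a region, with 46 regions in all. Of 19 paternally expressed genes, 8 had a region, with 25 in all, and Gnas, imprinted in both directions by transcript, had 4. The paternally expressed genes without a region were Nnat, Usp29, Plagl1, Zdbf2, Rtl1, Ndn, Snrpn, Magel2, Igf2, Nap1l5 and Mkrn3. The maternally expressed ones were Calcr, the calcitonin receptor, and Zim1, a zinc finger gene beside Peg3. Plagl1, a zinc finger transcription factor, and Snrpn, a splicing protein gene at the control region of its cluster, each had a peak in 1 library. Igf2, the fetal growth factor, had none. By cluster, 12 of 17 held a region and the Igf2-H19, Plagl1, Nnat, Nap1l5 and Zdbf2 clusters held none.

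**Figure D1:**
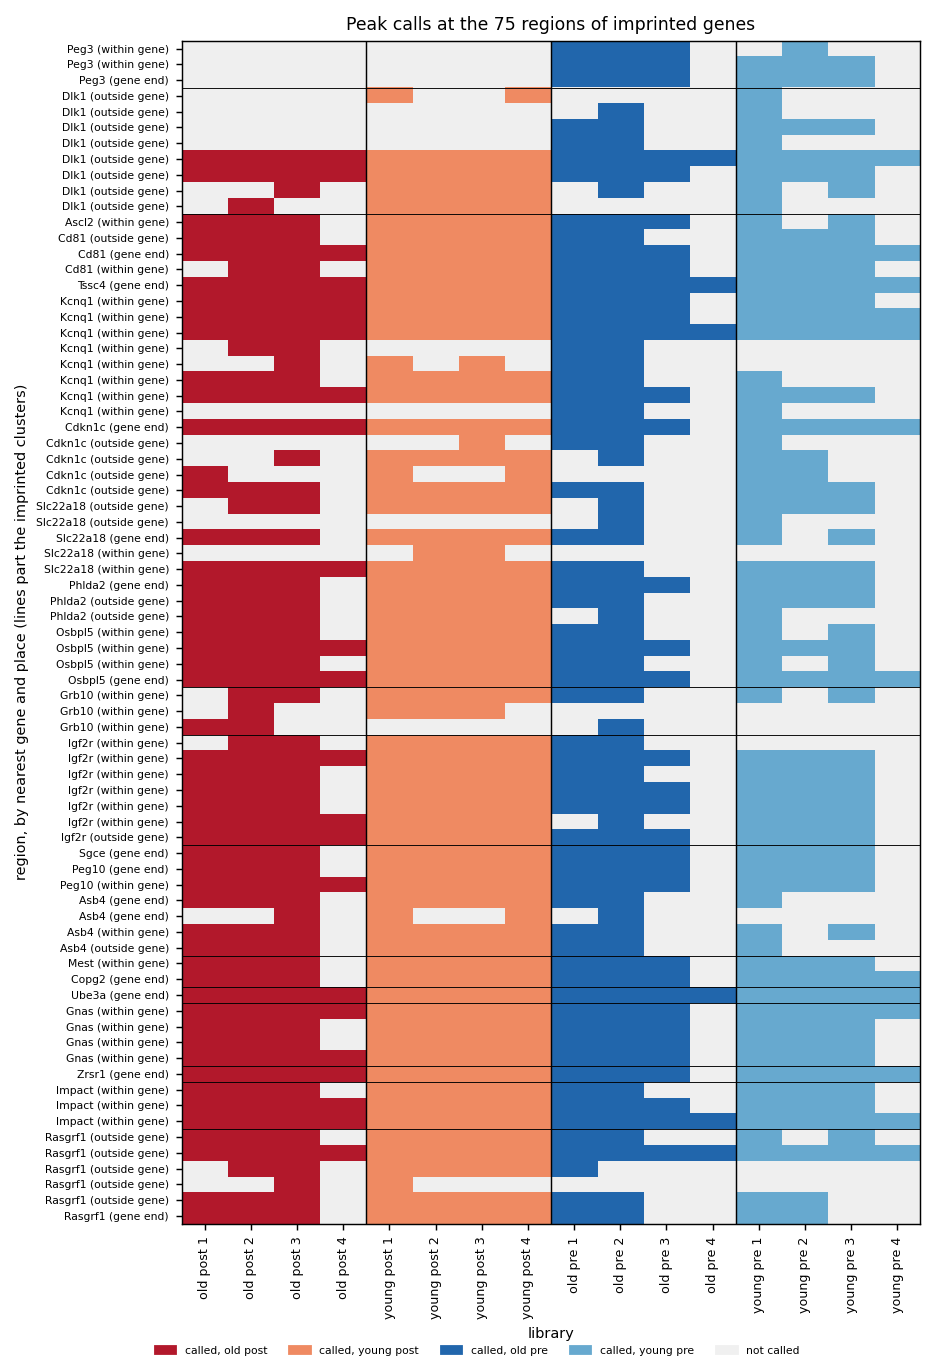
Peak calls at the 75 regions of imprinted genes (down the page, ordered by cluster, with the gene and the place of the region) in the 16 libraries (across: old post, young post, old pre, young pre). A filled cell is a called peak. The 3 Peg3 regions at the top are filled in pre libraries only, and the columns of old post 4, old pre 4 and young pre 4 are the emptiest.

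The fewest imprinted gene regions were called in the 3 shortest lists, and the most in old pre 2 and young pre 1, although the 4 young post lists were longer than both. Old post libraries 1 to 4 called 51, 58, 60 and 23 of the 75 regions, and young post libraries 63, 59, 61 and 60. Old pre libraries 1 to 4 called 60, 68, 35 and 6 regions, and young pre libraries 65, 47, 50 and 13. As a share, this was 64.0% ± 22.8 in old post, 81.0% ± 2.28 in young post, 56.3% ± 37.3 in old pre and 58.3% ± 29.3 in young pre (SD, n = 4 each). All regions were called at 67.1%, 88.5%, 55.5% and 56.2% in the same order.

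Set against the share of all regions in the same library, imprinted gene regions were called less often in most post libraries. The difference, imprinted minus all, averaged -3.12 ± 4.97 percentage points in old post, -7.50 ± 1.29 in young post, 0.832 ± 6.51 in old pre and 2.14 ± 8.09 in young pre (SD, n = 4 each). Over both ages it was -5.31 ± 4.10 points after and 1.49 ± 6.83 points before transplantation (SD, n = 8 each), and the ranges overlap. Within donors, the difference changed by -0.73, -9.55, -5.75 and 0.24 points in old donors 1 to 4 and by -14.1, -9.57, -14.8 and -0.05 points in young donors 1 to 4, as post minus pre. Both near-zero values of donors 4 and that of old donor 1 stand apart from the other 5, which lie between -14.8 and -5.75 points. No p is given for this score, because the genes were chosen with results of these data known.

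**Figure D2:**
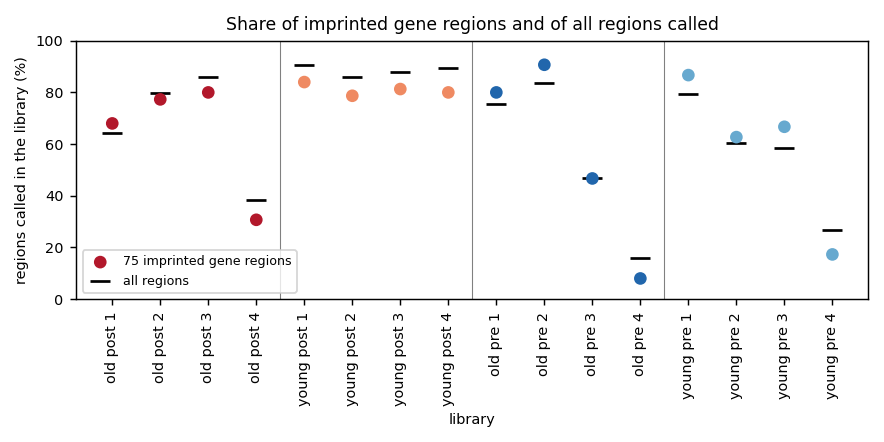
Share of regions called in each library (percent, from 0 to 100): coloured points are the 75 imprinted gene regions and black bars are all regions. In the 4 young post libraries every point lies below its bar, with differences from -9.37 to -6.59 points, and in old pre 1, old pre 2 and young pre 1 to 3 every point lies above it.

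Between post and pre libraries, the question was which imprinted loci gained or lost a call when HSCs had passed through transplantation. The regions that passed were 3 at Peg3 and 1 far upstream of Dlk1, all called in pre libraries and in no post library. They thus entered the set, and the range of calls that was tested, through their pre libraries alone. The genes were also chosen with results of these data known. The p values below therefore describe these calls and are not an independent test. Peg3 encodes a paternally expressed zinc finger protein, and its control region covers the shared promoter with Usp29 and the start of the gene. Dlk1 encodes a paternally expressed transmembrane relative of Notch ligands.

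Over both ages, 4 of the 36 imprinted gene regions tested (11.1%) passed an adjusted p of 0.05, all of them lower in post libraries. Among all 15155 regions tested, 39 (0.257%) passed, and 0 were higher in post. The test was a two-sided exact conditional test, paired by donor, with each library weighted by its overall odds of a call and Benjamini-Hochberg adjustment over all regions tested. At an unadjusted p under 0.05 in this test, 443 regions were lower and 0 higher in post, and 0 were higher within either age. Yet 511 regions were called in at least 6 of 8 post and 0 of 8 pre libraries. With these weights the test returned no gain anywhere, so its 0 says nothing on gains. Only regions called in 4 to 12 of the 16 libraries, with at least 1 donor whose libraries differed, were tested. In these bulk libraries, a peak lost from all cells and the loss of the cells that carried it cannot be told apart.

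The 3 Peg3 regions are neighbours within 2099 bp of chromosome 7, just inside the end of the gene that holds its transcription start. The gaps between them are 76 and 150 bp, so they are not independent results. The middle one, at 6728180 to 6729042, had its summit 1.76 kb from the gene end. Its area score was 918, 1003 and 732 in old pre 1 to 3 and 1061, 399 and 568 in young pre 1 to 3, with no peak in any of the 4 old post, the 4 young post or both short pre lists. These scores ranked between percentiles 36.3 and 67.9 of their own lists, well above the smallest score of about 200 that the caller kept. The region nearest to the start, at 6729193 to 6729904 and 0.921 kb from the gene end, scored 598, 754 and 414 in old pre 1 to 3 and 849, 558 and 506 in young pre 1 to 3. It too had no peak in the 8 post libraries. Its summit fell at nearly the same base each time, within a range of 15 bp.

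Both regions thus had 0 post calls and 6 pre calls among 8 libraries of each stage, and the groups overlap only in the 2 shortest pre lists. In all 6 donors whose libraries differed the call was in the pre library, whereas the library weights gave an expectation of 4.34 calls in post among those 6. The paired exact test gave p = 1.9e-07 and an adjusted p = 0.00035 for each. The third Peg3 region, at 6727806 to 6728103 and 2.52 kb from the gene end, was weaker, with scores of 222, 298 and 233 in old pre 1 to 3 and 203 in young pre 2. It passed with 0 of 4 differing donors showing a post call, against 2.53 expected (exact paired test, adjusted p = 0.027).

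The Dlk1 region that passed lies 50.2 kb upstream of the gene, at 109402209 to 109402643 of chromosome 12. Its area score was 306 and 362 in old pre 1 and 2 and 440, 298 and 283 in young pre 1 to 3, with no peak in old pre 3, in either short pre list or in the 8 post libraries. The 5 differing donors all had the call in the pre library, against 3.34 post calls expected (exact paired test, adjusted p = 0.026). On either side of it, regions 51.1 kb and 34.4 kb upstream were also called in pre libraries only, in 2 and 3 libraries, which was too few to be tested. The Dlk1 call rested on the young donors: without either library of young donor 1, 2 or 3 its adjusted p lay between 0.129 and 0.708 in the exact test. The weakest Peg3 region passed in 6 of the 16 leave-outs. Without either library of old donor 1, 2 or 3 or of young donor 2 it had too few calls to be tested, and it had an adjusted p = 0.0749 without young pre 3 and 0.0744 without young post 3 in the exact test. The stronger pair passed without any 1 of the 16 libraries, with an adjusted p of at most 0.0496. Over the alternatives in which it could be tested (23 for the Dlk1 region and 15 for the weakest Peg3 region), the adjusted p of the exact tests lay between 0.000971 and 0.708 for the Dlk1 region and between 0.0103 and 0.383 for the weakest Peg3 region.

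**Figure D3:**
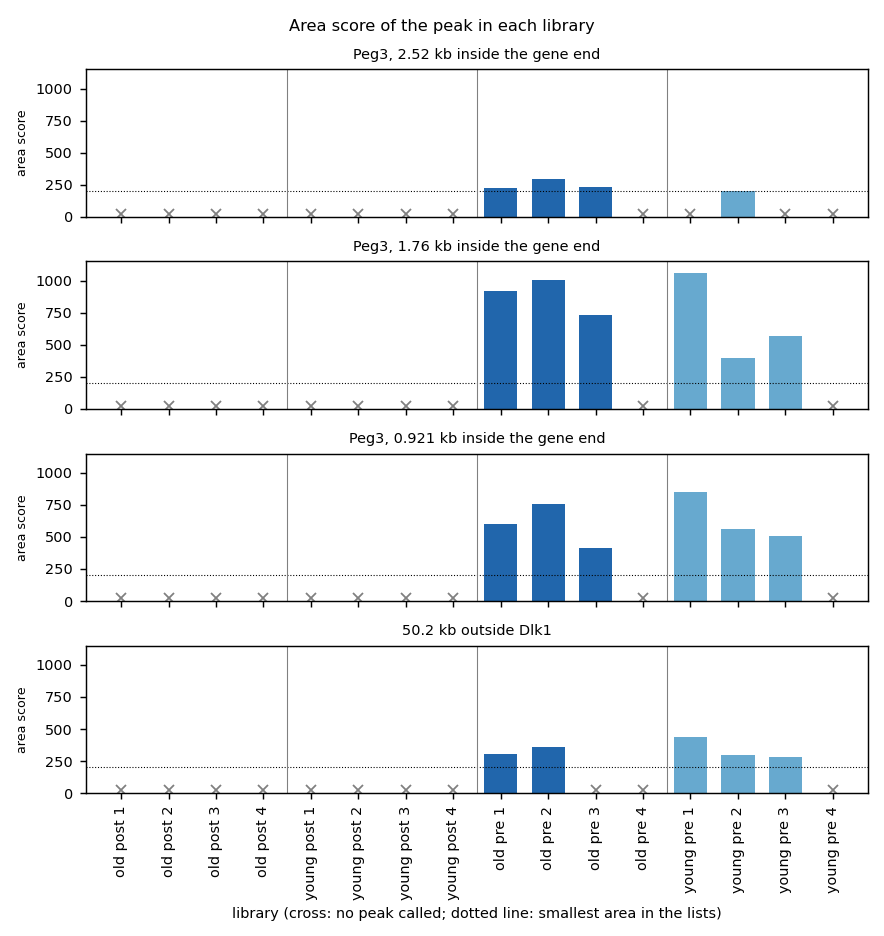
Area score of the called peak (bars, from 0; a cross marks no peak) in each of the 16 libraries at the 3 Peg3 regions and the Dlk1 region 50.2 kb upstream. The dotted line is the smallest score in the lists. All bars are in pre libraries, up to 1061 at the middle Peg3 region.

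The Peg3 pattern was rare among regions that looked like it before transplantation. Like the stronger pair of Peg3 regions, 5614 regions were called in old pre 1 to 3 and young pre 1 to 3 and in neither short pre list. Of these, 3263 were called in all 8 post libraries and 2224 in 7. The only 2 with no post call (0.0356%) were both at Peg3. Counted another way, 2 of 33773 regions (0.00592%) were called in at least 6 of 8 pre and 0 of 8 post libraries, the same pair. In the opposite direction, 511 regions (1.51%) were called in at least 6 of 8 post and 0 of 8 pre libraries, and 0 of them were imprinted gene regions. Lowering the bar to 5 pre libraries gave 10 regions, 3 of them imprinted gene regions, namely the Peg3 pair and the Dlk1 region. These counts restate the calls that the test used and add no separate support.

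**Figure D4:**
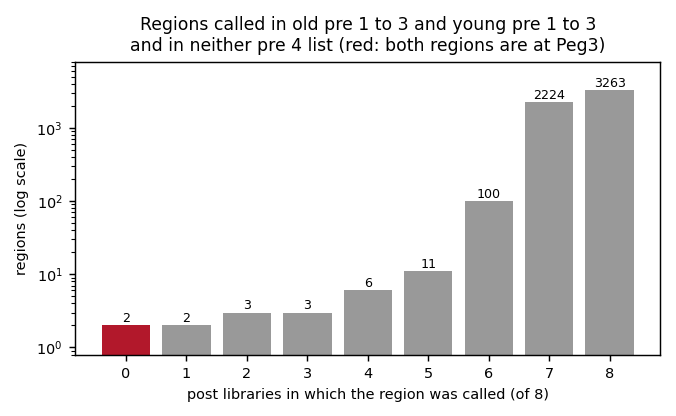
Number of regions (log scale) by the number of post libraries with a call, from 0 to 8, among the 5614 regions called in old pre 1 to 3 and young pre 1 to 3 and in neither of the other pre lists. Most regions stand at 7 or 8 post libraries, and the red bar at 0 is the pair at Peg3.

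Within each age, the Peg3 calls were split by stage in the same direction. In young donors, 3 of 13 imprinted gene regions tested (23.1%) passed, all lower in post, against 52 of 8842 regions in all (0.588%). They were the Dlk1 region and the stronger Peg3 pair, each called in young pre 1 to 3 and in 0 of 4 young post libraries, with 2.82 of 3 post calls expected (exact paired test, p = 5.4e-05, adjusted p = 0.0092). Among 33773 regions, 48 (0.142%) were called in no young post library and at least 3 young pre libraries, and these 3 were among them. The opposite pattern was held by 3569 regions (10.6%), 3 of them imprinted, at Grb10, Igf2r and Rasgrf1. In old donors, 0 of 28 passed, and 1 of 10292 regions in all (0.00972%). The 3 Peg3 regions, each called in old pre 1 to 3 and in 0 of 4 old post libraries, reached an unadjusted p = 0.0013 and an adjusted p = 0.26 in the same exact test. They were among 51 of 33773 regions (0.151%) called in no old post library and at least 3 old pre libraries, and 382 (1.13%), 0 of them imprinted, held the opposite pattern. Without either library of young donor 1, 2 or 3, 0 imprinted gene regions passed in young donors, and the 52 calls over all regions became 6 or 7. Whether the change differed between the ages was not tested. The weights carry these calls, since an unweighted paired exact test called 0 regions in any of these contrasts and left the stronger Peg3 pair at an adjusted p = 0.38. Shortening every list to the third shortest also ended the calls, with an adjusted p = 0.63 for the pair in the weighted exact test. Over its 25 alternatives the pair's adjusted p lay between 1.94e-05 and 0.631.

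No other imprinted gene region passed. After those 4, the smallest p over both ages in the lower direction was 0.15, for a region 1.03 kb outside Cdkn1c, the cell cycle inhibitor p57Kip2 that is known for HSC quiescence (exact paired test, adjusted p = 1.0). It was called in young post 3, old pre 1 and 2 and young pre 1. In young donors, another Cdkn1c region, 4.13 kb outside the gene, had an unadjusted p = 0.027 and an adjusted p = 0.95 in the exact test. It was called in old post 1, in young post 1 and 4 and in young pre 1 and 2. In the higher direction the smallest values were 0.19 for the Igf2r region 14.9 kb from the gene end, 0.22 for the Phlda2 region 3.76 kb outside the gene and 0.39 for the Dlk1 region on its downstream side, none of which passed the exact test after adjustment. Over all regions the paired exact test gave no p under 0.05 in the higher direction, so these values say nothing on gains. In old donors alone the smallest p in that direction was 0.17, shared by the same Igf2r and Phlda2 regions and 1 region within Grb10 (exact paired test, adjusted p = 1.0 each). That Igf2r region was called in all 8 post libraries, in old pre 2 and in young pre 1 to 3, and the Phlda2 region in old post 1 to 3, all 4 young post libraries, old pre 2 and young pre 1.

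Regions of 4 genes accounted for all 8 that were called in pre libraries only, which is 10.7% of the imprinted gene regions, against 2.71% of all regions. Peg3 and Dlk1 had 3 each, and Kcnq1 and Slc22a18 had 1 each. Called in post libraries only were 3 regions (4.0%, against 9.0% of all regions), at Grb10, Rasgrf1 and Slc22a18.

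Markers of stromal and endothelial cells, which share the marrow with HSCs, were read beside these values. The 7 stromal marker regions were called 2 to 6 at a time in old post, 5 to 7 in young post, 1 to 3 in old pre and 1 to 5 in young pre libraries. The 16 endothelial marker regions were called 4 to 13, 12 to 16, 0 to 14 and 2 to 13 at a time in the same order of groups. As shares, the stromal regions were called at 60.7%, 85.7%, 32.1% and 50.0% and the endothelial ones at 57.8%, 85.9%, 48.4% and 46.9%, beside 67.1%, 88.5%, 55.5% and 56.2% for all regions. Of their regions, 4 and 9 were tested post against pre over both ages and 0 passed. The part of such cells in the Peg3 and Dlk1 calls was not tested.

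Between old and young HSCs, the question was whether any imprinted locus differed with donor age before or after transplantation. None passed the test. Before transplantation 0 of 27 imprinted gene regions passed, and 0 of 9407 regions in all (0.0%), with 215 regions and 0 imprinted ones at an unadjusted p under 0.05 in the unpaired exact test. After transplantation 0 of 7 passed, against 24 of 5163 in all (0.465%), and 0 of the 7 had an unadjusted p under 0.05. Over both stages 0 of 36 passed, against 41 of 15182 in all (0.27%), and 1 of the 36 had an unadjusted p under 0.05. Without 1 library, the 24 became 0 to 20 and the 41 became 2 to 65. The unweighted exact test gave no p below 0.14 before, 0.029 after and 0.0014 over both stages, so its count of 0 calls says nothing on age.

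The imprinted gene region with an unadjusted p under 0.05 over both stages lies within Kcnq1, a potassium channel gene that hosts the silencing RNA Kcnq1ot1, at 143364039 to 143364769 of chromosome 7. It had area scores of 240 and 422 in old post 2 and 3 and of 351 and 253 in old pre 1 and 2, with no peak in any young library. Old libraries held 4 calls and young libraries 0, among 8 each, against 1.37 old calls expected. The exact test, which treats both libraries of a donor as separate samples, gave p = 0.0013 and an adjusted p = 0.132. This region entered the set, and the range of calls that was tested, through its old libraries alone. The p therefore describes these calls and is not an independent test. A region within Grb10, an adaptor that restrains insulin and growth factor signalling, was also called in old libraries only, at 243 and 265 in old post 1 and 2 and 297 in old pre 2. Of the other Grb10 regions, 1 was called in old post 2 and young post 1 to 3 and in no pre library, and 1 in old post 2 and 3, all 4 young post libraries, old pre 1 and 2 and young pre 1 and 3. Regions called in old libraries only made up 2.67% of imprinted gene regions and 2.65% of all regions.

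The other age differences did not pass either. The Igf2r region 14.9 kb from the gene end and the Slc22a18 region 3.55 kb outside the gene were each called in 1 of 4 old pre and 3 of 4 young pre libraries (unpaired exact test, p = 0.067 each, adjusted p = 1.0). Over both stages the Slc22a18 region had 3 of 8 old and 7 of 8 young calls (exact test, p = 0.051, adjusted p = 0.81). The Dlk1 region 6.25 kb upstream of the gene was called in old post 3, in all 4 young post libraries, in old pre 2 and in young pre 1 and 3 (exact test over both stages, p = 0.095, adjusted p = 1.0). The Cdkn1c region 3.03 kb outside the gene had the same number of calls in each group and the same p. The weakest Peg3 region, with 3 old and 1 young call, had p = 0.13 before transplantation (adjusted p = 1.0) and p = 0.056 over both stages (adjusted p = 0.81) in the exact tests.

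Further regions named by a contrast of age or stage had p = 1.0 in its exact test. Of these, the Asb4 region 0.959 kb inside its gene end was called in old post 3, young post 1 and 4 and old pre 2. The Igf2r region 28.0 kb inside the gene was called in old post 2 and 3, all 4 young post libraries and old pre 1 and 2. The Kcnq1 region 59.2 kb inside the gene was called in old post 3, young post 1 and 3 and old pre 1 and 2.

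Ascl2, a transcription factor gene of the placenta, had 1 region, called in old post 1 to 3, all young post libraries, old pre 1 to 3 and young pre 1 and 3 (exact test before transplantation, p = 0.23, adjusted p = 1.0).

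The 6 regions called in all 16 libraries lay at 6 different genes. Impact, which encodes an inhibitor of the kinase GCN2, held the strongest, 19.1 kb inside the gene, with an area rank between percentiles 99.1 and 99.7 of the 16 lists. Its area score was 4837, 5723, 5483 and 2975 in the old post libraries, and 5558, 5487, 5786 and 5904 in the young post ones. In the pre libraries it was 4936, 4946, 3731 and 1674 for the old donors and 5187, 4315, 3925 and 2163 for the young donors. The 3 lowest scores fell in the 3 short lists, and the scores are not normalised between libraries, so only their ranks are compared.

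Tssc4 had a gene end region at a median rank of percentile 94.8, and Ube3a, a ubiquitin ligase imprinted in neurons, one at 94.5. The Ube3a region at 59227906 to 59229925 of chromosome 7 covers the whole upstream window printed above, and it was the only region of the 5 genes of the Snrpn cluster. The region over the start of Kcnq1ot1, at 143295120 to 143297015 of chromosome 7, had a median rank of percentile 83.0. Its area score was 1187, 1885, 2023 and 681 in the old post libraries and 2104, 1911, 2188 and 2230 in the young post ones. It was 1392, 1989, 942 and 330 in the old pre and 2117, 1095, 1177 and 446 in the young pre libraries. The remaining always-called regions were 14.6 kb upstream of Dlk1, at percentile 70.5, and 77.5 kb from Rasgrf1, at percentile 72.4, where it overlaps the noncoding RNA 4930524O08Rik. Rasgrf1 encodes a Ras exchange factor, and its gene end region was called in 11 libraries, missing from old post 4, old pre 3 and 4 and young pre 3 and 4.

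Dlk1 therefore had regions of both kinds on its upstream side. Of its 8 regions, the one 14.6 kb away was called in all 16 libraries and the one 10.9 kb away in all but old pre 4 and young pre 4, whereas those 34.4, 50.2 and 51.1 kb away had no post call. The outermost, 58.5 kb away, was called in young post 1 and 4 and in young pre 1. The region on the downstream side, 49.0 kb from Dlk1 towards Meg3, was called in old post 2, all 4 young post libraries and young pre 1. Over the cluster, 10 of 32 possible calls (31.2%) were made in old post, 18 (56.2%) in young post, 13 (40.6%) in old pre and 16 (50.0%) in young pre libraries. No region overlapped Meg3, Rian or Mirg, the maternally expressed noncoding RNAs of that cluster.

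The Kcnq1 cluster on chromosome 7 held the most regions of the 17 clusters, 30 at 8 of 8 genes. Calls reached 65.8% of those possible in old post, 82.5% in young post, 55.0% in old pre and 59.2% in young pre libraries, in the order of the list lengths of the groups. Kcnq1 itself had 8 regions, Cdkn1c and Slc22a18 5 each, Osbpl5, an oxysterol-binding protein gene, 4, Cd81, a tetraspanin gene, and Phlda2, a placental growth inhibitor, 3 each, and Ascl2 and Tssc4 1 each. The Cdkn1c gene end was called in every library but old pre 4. The Kcnq1 region nearest to its gene end, 27.2 kb inside, had peaks in pre libraries only, at 442 and 268 in old pre 1 and 2 and 413 in young pre 1.

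At Igf2r, the receptor that clears Igf2, the 7 regions gave 23 of 28 possible calls in old post, 28 in young post, 17 in old pre and 18 in young pre. Of these regions, 4 overlap Airn, the noncoding RNA that silences Igf2r on the paternal copy. The one over the Airn start scored 490, 657 and 820 in old post 1 to 3 and 737, 470, 526 and 669 in the young post libraries, against 512, 722 and 286 in old pre 1 to 3 and 703, 210 and 540 in young pre 1 to 3. It was missing only from the 3 short lists. The promoter window of Igf2r itself, with 27 CpG, was not overlapped.

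Peg10, a retrotransposon-derived gene, and Sgce, the epsilon-sarcoglycan gene, share a control region at their facing starts. The Sgce and the Peg10 gene end regions were called in all libraries but the 3 short ones, and the second Peg10 region only missed both short pre lists. Asb4, farther along that cluster, had 4 regions in 4 to 11 libraries, and Calcr had none. Mest, a hydrolase gene, had 1 region, 3.62 kb inside the gene, called in all libraries but the 3 short ones, and Copg2, a coat protein gene next to it, had 1 at its gene end, missing from old post 4 and old pre 4. Gnas, the stimulatory G protein gene, had 4 regions called in 13 to 15 libraries. The one nearest its gene end missed old pre 4 and young pre 4. Zrsr1, a paternally expressed splicing factor gene inside Commd1, had 1 region, called in all but old pre 4. Impact had another region 1.06 kb inside its gene end, called in 12 libraries.

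Across the promoter windows, imprinted genes followed the whole genome in carrying more CpG where a region was called. RefSeq windows were found for 29 of the 35 genes, 46 windows in all, and 15 of these (32.6%), of 12 genes, were overlapped by a region, against 40.6% of the 32619 windows of all genes. The overlapped windows of imprinted genes held a median of 19 CpG and the others 10, against 16 and 3 over all genes. The imprinted windows without a region thus had a higher median CpG count than such windows over all genes, with up to 40 at 1 Grb10 window. Among the 15 overlapped windows, those of Zrsr1, with 8, Asb4, with 4, and Slc22a18, with 0, held the fewest CpG. The median of all windows of all genes was 6, below that of Zrsr1.

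**Figure D5:**
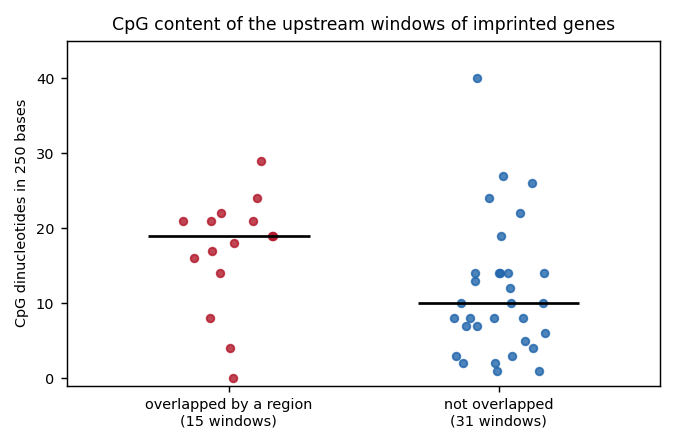
CpG dinucleotides in the 250 upstream bases of imprinted genes (vertical axis, count), for the 15 windows overlapped by a region and the 31 not overlapped; each point is a window and the line is the median, 19 and 10. The ranges overlap, from 0 to 29 and from 1 to 40.

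The letters TGCCGC, which the imprint-keeping protein Zfp57 is known to bind when methylated, were searched on both strands in the same windows, without regard to overlaps with other motifs. They were found in 9 of 46 imprinted windows (19.6%), against 8.73% of the windows of all genes. Of the 9, 2 are Mest windows that start 3 bp apart and share the letters. Among overlapped windows the shares were 13.3% for imprinted genes and 14.7% for all genes, and among the others 22.6% and 4.66%. The letters hold a CpG themselves, and imprinted windows held a median of 13.5 CpG, against 6 for the windows of all genes. Whether the shares differ at equal CpG content was not tested. A match is a description of these letters and not a binding site, and none was found in the 6 windows printed above.

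Other genes of imprinting showed no region that passed. The list of 12 genes that keep imprints, such as Zfp57, Trim28, Dnmt1 and Uhrf1, had regions at 11, all but Dnmt3l, the cofactor of germ line methylation. Its 19 regions were called at 75.0% in old post, 96.1% in young post, 65.8% in old pre and 63.2% in young pre libraries, and 0 passed in any of the 6 contrasts. A list of 26 other imprinted genes had 48 regions at 21 genes, called at 64.6%, 83.9%, 51.6% and 52.1% in the same order, and 0 passed. Of those 48, 20 were tested post against pre over both ages, and of the 19 regions of the imprint-keeping genes, 7 were.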

How the data were processed

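For the 16 libraries, the submitters' processing notes name Trim Galore and cutadapt (trimming), Genrich (peak calling) and build mm10. Which aligner, versions and parameters applied is not given in the sources used here. For each library the authors deposited 1 narrowPeak list, holding a score (the area under the significance curve of a peak, and the same per base) and the -log10 p and -log10 q of its summit. These deposited values carry no normalisation across lists. Presence or absence of a peak was therefore compared, and area ranks were taken within a list. Depth is unknown, and no counting interval is given.

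Of 387029 peaks, 393 (0.102%) lay on unplaced scaffolds or on chromosomes other than the autosomes and X, and were left out. Peaks that overlapped formed a region, kept if 2 or more libraries called it and assigned to the nearest of 21627 protein-coding genes of the RefSeq table of GRCm38.p6. Without strand in that table, "gene end" covers both ends, up to 1 kb away.

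Calls were compared by exact conditional tests, two-sided, with library weights from a Rasch model fitted by conditional maximum likelihood to the libraries of the contrast. Regions called in 4 to 12 of 16 or 3 to 5 of 8 libraries were tested, with Benjamini-Hochberg adjustment over all of them. Post against pre was paired by donor, as the series design states. Deviations from group means in same-numbered post and pre libraries of an age correlated between -0.35 and 0.277 (median 0.035). Those in differently numbered ones correlated between -0.377 and 0.378 (median -0.013), so these values do not set the donor pairs apart. The p values treat calls as independent draws given the library weights and hold no estimate of the spread between donors or transposition days. The procedure was also run on independent calls simulated from the same model, which cannot show how it behaves under donor or day effects. The genes, lists and tests were chosen with earlier results of these data known. Regions were named by the smallest p in each contrast and direction, by nearness to the control-region gene of each cluster, and by area rank among regions called in all 16 libraries. Alternatives covered the area threshold, the merging of peaks, the libraries and distance required, list length, weights, pairing, transposition day and leaving out each library. Python 3.11.15, numpy 2.4.6, pandas 2.3.3 and scipy 1.17.1 were used.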

Additional observations from a re-analysis of the deposited data

How the results depend on the processing

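In the exact tests, the count of imprinted gene regions passing was 0 under every alternative run for old against young (before, after and over both stages) and for post against pre in old donors. Over both ages, 4 passed post against pre, and 2 with an area score of at least 400, 2 with summits within 200 bp joined, 0 with lists shortened to the third shortest (14008 peaks), 0 in the unweighted test and 2 to 4 without 1 library. In young donors, 3 passed, and 1, 0, 0 and 0 in the same settings and 0 to 3 without 1 library. Over all regions, 39 calls over both ages became 18, 158, 3 and 0 in those settings, 54 with at least 4 libraries required and 13 to 39 without 1 library, and 52 calls in young donors became 27, 107, 0 and 0, and 6 to 47 without 1 library. Old against young, 24 calls after transplantation became 0 to 20 without 1 library and 41 over both stages became 2 to 65. Shortening the lists left 38 of 75 regions. The unweighted test could reach no p below 0.0078 over both ages and 0.12 in young donors, nor did it give one below 0.0014 in any contrast of age, so its counts of 0 are no sign of stability. The other causes were not tested.

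The imprinted minus all share, old minus young, was -1.31 points before and 4.38 points after transplantation. On shared transposition days it was -10.0 and 0.683 points, and with an area score of at least 400 it was -1.73 points after transplantation. Post minus pre it was -6.79 points and between -9.82 and -4.89 points in all alternatives.

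Without the replicate block, post against pre gave 4 imprinted gene regions over both ages, 3 in young donors and 0 in old donors, while calls over all regions went to 61 over both ages. With the replicate number as a block between the ages, 0 imprinted gene regions passed, and calls over all regions after transplantation went to 4, against 24 without it, and to 3 over both stages, against 41. Weights taken from all 16 libraries, and leaving out the 3 shortest lists, were chosen after seeing the data. Neither changed a call of an imprinted gene region, although with those weights 2 regions in all passed after transplantation.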

Other observations

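Noncoding RNAs of the imprinted clusters were not used to choose regions. Of 7 examined, Airn and Kcnq1ot1 were overlapped by regions (4 and 1), and H19, Meg3, Rian, Mirg and Snhg14 by none. Just beyond Mirg, a region at 109749745 to 109750250 of chromosome 12 was called in 13 libraries, in 3 of 4 old post, 4 of 4 young post, 3 of 4 old pre and 3 of 4 young pre libraries, and no protein-coding gene lay within 100 kb. Upstream of H19, a region at 142580253 to 142580863 of chromosome 7 was called in old post 3, young post 1 and old pre 1, and its nearest protein-coding gene was Mrpl23.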
